A study of Homo sapiens with 54 samples.

Results

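AG09319 is a human fibroblast line, and the comparison described here sets AG09319 cells after 36 h with calcitriol against untreated AG09319 cells at 0 h. The members are all arrays that the labels give this line and these times, 2 at 36 h and 2 at 0 h, or 4 of the 54 arrays of the series, and the comparison runs over 19460 probe sets that each name 1 gene. The series measured 9 cell lines with Affymetrix Gene 1.0 ST arrays, 2 arrays for each line at 0, 8 and 36 h. Its lines other than fibroblasts were the lymphoblastoid lines GM07019, GM07348, GM10854 and GM12878, the leukaemia lines HL60 and K562 and the hepatoma line HepG2. These too were untreated at 0 h and had calcitriol at 8 and 36 h. Their arrays were used for marker levels, for the spread behind the p-values and for a mean change of the other lines. Also used here were the AG09319 arrays at 8 h with calcitriol and, from a further fibroblast line, AG09309, the arrays at 36 h with calcitriol and at 0 h without it. The labels name no genetic change in either line, and no dose of calcitriol is given in them. The labels mark the arrays of a group BR1 and BR2, which may stand for biological replicates but is not spelled out. The labels do not say whether the arrays came from separate cultures. A p-value therefore takes in the spread between such samples alone, which may be technical. No untreated culture kept for 36 h was analysed here, so calcitriol and time in culture cannot be told apart.

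Calcitriol, the hormonal form of vitamin D, binds the vitamin D receptor VDR, which pairs with a retinoid X receptor and binds DNA near its target genes. A widely shared target is CYP24A1, whose enzyme breaks calcitriol down and so limits the signal. In many cell types, fibroblasts among them, calcitriol is also known to slow proliferation, and genes for copying DNA and dividing the cell are transcribed mainly in cells that pass through the cell cycle.

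Levels are log2 values, and changes are differences of log2 levels, 36 h minus 0 h, with the standard error after the ± sign. In AG09319 the 2 arrays correlated at 0.986 at 36 h and 0.986 at 0 h, and the median of this correlation over the 27 groups of the series was 0.987. Array medians lay between 5.49 and 5.56 in the 4 arrays compared, so a level far below these may not be above background. At 8 h the second AG09319 array stood apart, with correlations of 0.867 to 0.921 with the other 5 AG09319 arrays, which correlated at 0.972 to 0.989 with one another. Results at 8 h are therefore given with and without that array. Of 14 fibroblast markers 13 had a mean level above 7 at 0 h, among them COL1A1, THY1 and PDGFRA, and the marker mean was 9.54 to 9.56 per array at 36 h and 9.22 to 9.32 at 0 h. In the 7 lines that are not fibroblasts that mean was 4.52 to 4.99. Of the 9 epithelial markers measured only KRT19 lay above 7, and none of the endothelial, smooth muscle, melanocyte, leukocyte, hepatocyte or erythroid markers did. The leukocyte marker mean was 4.15 to 4.20 at 36 h and 3.71 to 4.40 at 0 h. Of all markers 4 were called, with changes of 0.82 for DCN, 0.67 for PDGFRB, -0.87 for the epithelial keratin KRT8 and -0.91 for the pericyte marker CSPG4.

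The question was which genes of AG09319 cells change by 36 h with calcitriol. CYP24A1 rose most, followed by AKR1C3, an aldo-keto reductase of steroid and prostaglandin metabolism, and PDGFD, a ligand of the PDGF receptors. Among the falls were most measured genes of DNA replication, mitosis and the histones. At an adjusted p under 0.05 (limma) 874 probe sets changed, which is 4.49% of those tested, with 347 higher (1.78%) and 527 lower (2.71%) at 36 h. In all 874 the arrays of the 2 times did not overlap, as in 42.5% of all probe sets tested. Changes beyond 2-fold were found in 124 of the rises and 280 of the falls. With 1 probe set for each of 18417 genes, 338 genes rose (1.84%) and 492 fell (2.67%), or 4.51% together, and the median change over all genes was -0.0026. The counts of called list members below are to be read against these shares. The lists were chosen with earlier results of these data known, so a high called share may be partly built in. The standard error rests on a spread shared by all 27 groups of the series. From the 4 arrays alone 849 probe sets were called, 706 of them also among the 874, whereas a fit to the 6 AG09319 arrays, which hold the 8 h array that stands apart, called 1. Without the first or second array at 36 h 516 and 526 were called, without the first or second at 0 h 476 and 577. Of the 874, 304 stayed called whichever of the 4 arrays was left out, and none changed direction. The plot of change against level shows CYP24A1 far above all other probe sets.

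**Figure D1:**
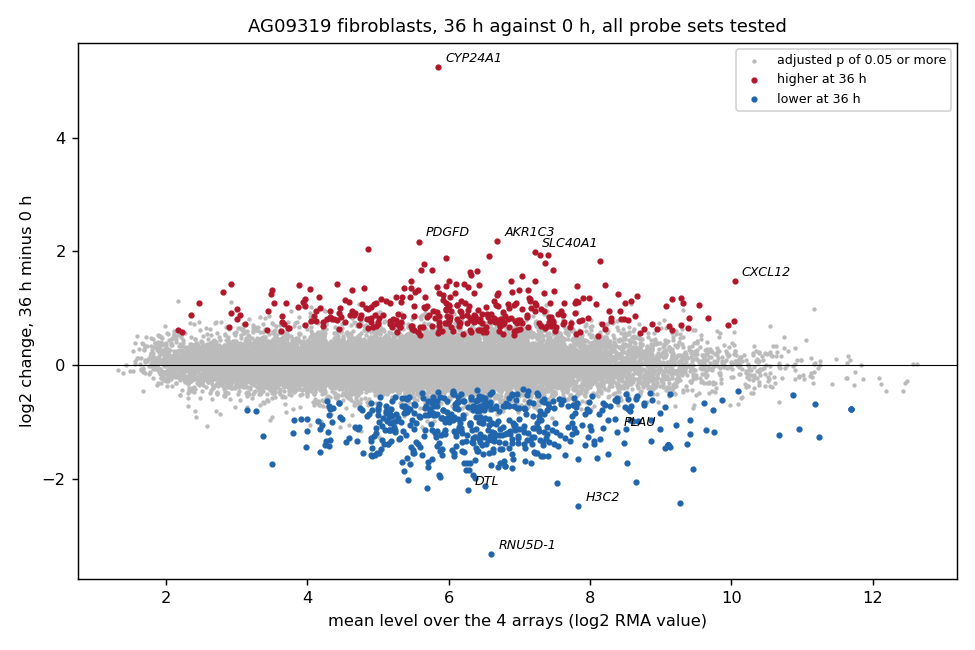
Change of each of 19460 probe sets in AG09319 (log2, 36 h minus 0 h) against its mean level over the 4 arrays (log2 RMA value), with the 347 rises in red, the 527 falls in blue and all others in grey. CYP24A1, at 5.24, lies above the next rises, AKR1C3 at 2.17 and PDGFD at 2.16.

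Among the vitamin D genes CYP24A1 had levels of 8.52 and 8.41 at 36 h, against 3.59 and 2.86 at 0 h, a change of 5.24 ± 0.33 (adjusted p = 2.52e-13). Both arrays at 36 h lay far above the array medians and both arrays at 0 h below them. VDR had 6.03 and 6.44 at 36 h, against 5.91 and 5.65 at 0 h, and did not pass the test (0.45 ± 0.20, adjusted p = 0.278). Of 33 measured vitamin D response genes 5 rose and 1 fell, or 18.2% against 4.51% of all genes, with a median change of 0.078. The other 4 rises were DPP4, a dipeptidyl peptidase of the cell surface (1.94), EFL1, a ribosome maturation factor (1.32), SERPINB1, an intracellular inhibitor of serine proteases (1.31), and CLMN, the membrane protein calmin (0.64). HBEGF, a growth factor of the EGF family, fell by 0.73. EFL1 lost its call without the second array at 36 h or the second at 0 h, and CLMN and HBEGF whichever of the 4 arrays was left out. Of 16 genes of vitamin D receptor function and metabolism only CYP24A1 passed, or 6.25% against 4.51% of all genes. Some vitamin D targets known from other cells did not pass, with changes of 0.12 for CD14, 0.08 for the thrombomodulin gene THBD, -0.32 for CAMP, -0.19 for CDKN1A and 0.08 for IGFBP3.

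AKR1C3 had levels of 7.67 and 7.88 at 36 h, against 5.65 and 5.55 at 0 h (2.17 ± 0.28, adjusted p = 1.81e-06). Its relative AKR1C1 rose as well, with 8.05 and 7.88 at 36 h, against 6.60 and 6.38 at 0 h (1.47 ± 0.24). The AKR1C genes are near-identical in sequence, so how the signal divides between them is uncertain. Of 25 aldo-keto reductase and NRF2 target genes, NRF2 being the regulator of the antioxidant response, 4 rose and none fell (median 0.094). The others were GSTM3, a glutathione transferase (0.77), and PGD, an enzyme of the pentose phosphate pathway (0.68). GSTM3 lost its call whichever array was left out and PGD without the first at 36 h or the second at 0 h. HSD17B2, which oxidises active oestrogens and androgens to weaker steroids, had 8.54 and 8.22 at 36 h, against 6.43 and 6.47 at 0 h (1.93 ± 0.18, adjusted p = 2.02e-09). As in every called probe set, neither time overlapped the other for these steroid enzymes. Of 18 prostaglandin genes PTGIS, the prostacyclin synthase, rose by 1.18 and PTGS1, a cyclooxygenase, fell by 0.61, a call lost without either array at 36 h or the first at 0 h.

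PDGFD had levels of 6.75 and 6.57 at 36 h, against 4.42 and 4.57 at 0 h (2.16 ± 0.18, adjusted p = 7.37e-10). Of 7 measured PDGF ligands and receptors 3 rose and none fell. PDGFRL, which encodes a receptor-like protein, had 6.57 and 7.40 at 36 h, against 5.72 and 5.71 at 0 h (1.27 ± 0.23), and lost its call without the second array at 36 h. PDGFRB, the receptor that the PDGFD protein binds, rose by 0.67 and lost its call whichever array was left out.

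The other large rises covered transport, signalling and metabolism, and each kept its call whichever of the 4 arrays was left out. SLC40A1, the iron exporter ferroportin, had 8.15 and 8.28 at 36 h, against 6.26 and 6.19 at 0 h (1.99 ± 0.22). DPP4 had 8.08 and 8.43 at 36 h, against 6.48 and 6.16 at 0 h (1.94 ± 0.26). ADHFE1, a mitochondrial dehydrogenase that acts on hydroxybutyrate, had 6.12 and 5.61 at 36 h, against 3.92 and 3.74 at 0 h (2.04 ± 0.20). In each of these the lower array at 36 h stood well above the higher at 0 h. OSR2, a zinc finger transcription factor, had 9.03 and 9.07 at 36 h, against 7.32 and 7.13 at 0 h (1.83 ± 0.21). The glucose transporter gene SLC2A12 rose by 1.91 and GABRE, a subunit of the GABA-A receptor, by 1.88. EDNRB, an endothelin receptor, rose by 1.79, PLD1, a phospholipase D, by 1.78, and APCDD1, an inhibitor of WNT signalling, by 1.67. RXFP1, the relaxin receptor, rose by 1.67 and TCP11L2 by 1.66. The plot of levels by time shows 8 of the risen genes.

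**Figure D2:**
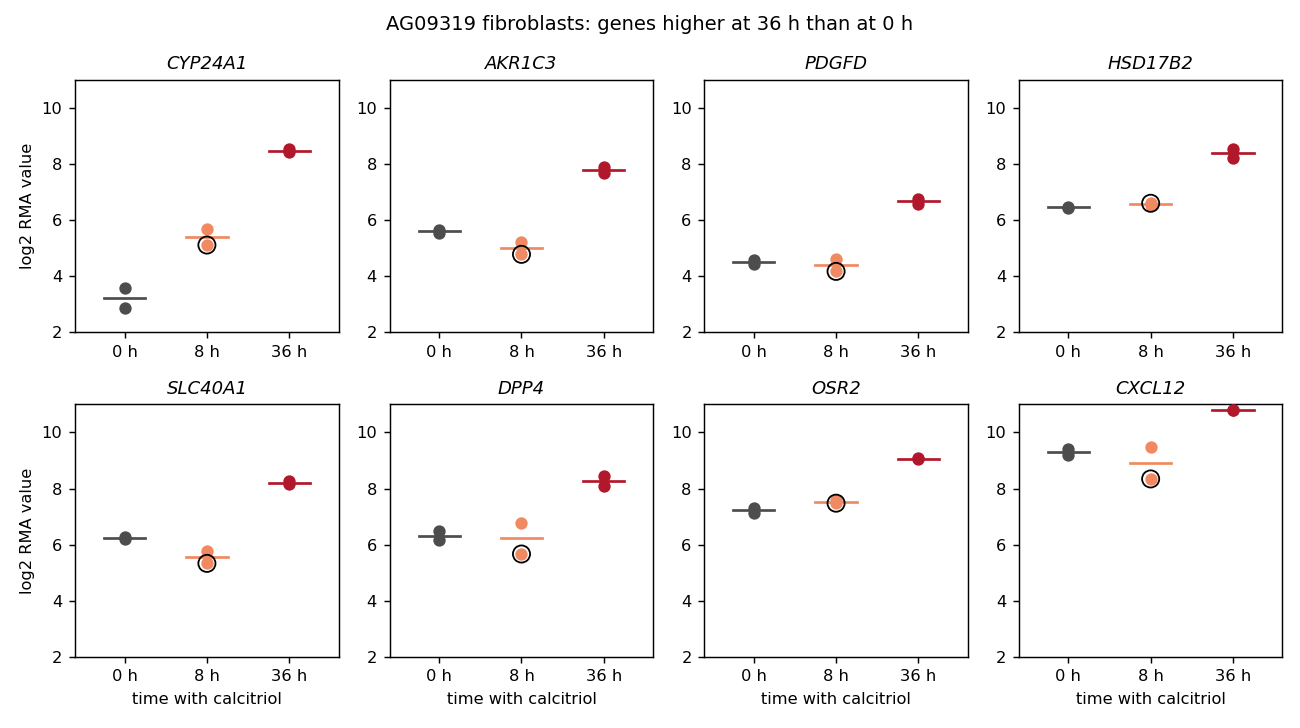
Log2 level of 8 risen genes in each AG09319 array at 0, 8 and 36 h (points, arrays; lines, means of 2), with the 8 h array that stands apart ringed. At 36 h both arrays lie above all arrays of the other times for each of the 8 genes, as for CYP24A1 with 8.52 and 8.41.

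Genes that copy DNA fell together. Of 46 measured genes of DNA replication and the G1/S transition 42 fell and none rose, with a median change of -1.37. DTL, whose product marks licensing proteins such as CDT1 for destruction, had 5.06 and 5.28 at 36 h, against 7.53 and 7.22 at 0 h (-2.20 ± 0.25, adjusted p = 1.17e-07). CDC6, a licensing factor of replication origins, had 5.33 and 5.56 at 36 h, against 7.73 and 7.43 at 0 h (-2.13 ± 0.28). CCNE2, a cyclin of S phase entry, had 4.25 and 4.98 at 36 h, against 6.95 and 6.61 at 0 h (-2.16 ± 0.30). Both arrays at 36 h lay below both at 0 h, as in every called fall, and by more than their own spread in each of the 3. MCM3, a subunit of the replicative helicase, fell by 1.84, EXO1, a DNA repair exonuclease, by 1.75, and CLSPN, a checkpoint adaptor, by 1.99. PCNA, the sliding clamp, fell by 1.41 and RRM2, a subunit of ribonucleotide reductase, by 1.60. The 4 members that did not pass were E2F2 (-0.62), UNG (-0.35), SLBP (-0.43) and DSCC1 (-1.16). Of the 42 falls 32 stayed called whichever array was left out. In such bulk samples fewer dividing cells and less RNA per cell cannot be told apart.

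Mitosis genes fell too. Of 43 measured genes of mitosis and the G2/M transition 41 fell and none rose, with a median of -1.27. CDK1, the kinase that drives entry into mitosis, had 4.72 and 5.0 at 36 h, against 6.79 and 6.33 at 0 h (-1.70 ± 0.31, adjusted p = 0.000335). MKI67, the gene of the proliferation marker Ki-67, had 6.43 and 6.77 at 36 h, against 8.41 and 8.00 at 0 h (-1.61 ± 0.25). The arrays of the 2 times were apart, as in every called probe set. KIF11, a spindle motor, fell by 1.73, NUF2, a kinetochore protein, by 1.68, NCAPG, a condensin subunit, by 1.59, and ANLN, a scaffold of the cleavage furrow, by 1.57. Of the 41 falls 15 stayed called without the first array at 36 h and 17 without the first at 0 h, 35 and 38 without the second arrays, and 13 in all 4 cases. KIF11 lost its call without the first array at 0 h, NUF2 without the first at 36 h and ANLN without either. With only the arrays of the 2 fibroblast lines in the fit 7 members were called. The 2 lists together held 83 of the 492 fallen genes, or 16.9%. Of 20 CDK inhibitor and p53 target genes, some of which act to halt the cycle, none was called, with a median change of 0.044.

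**Figure D3:**
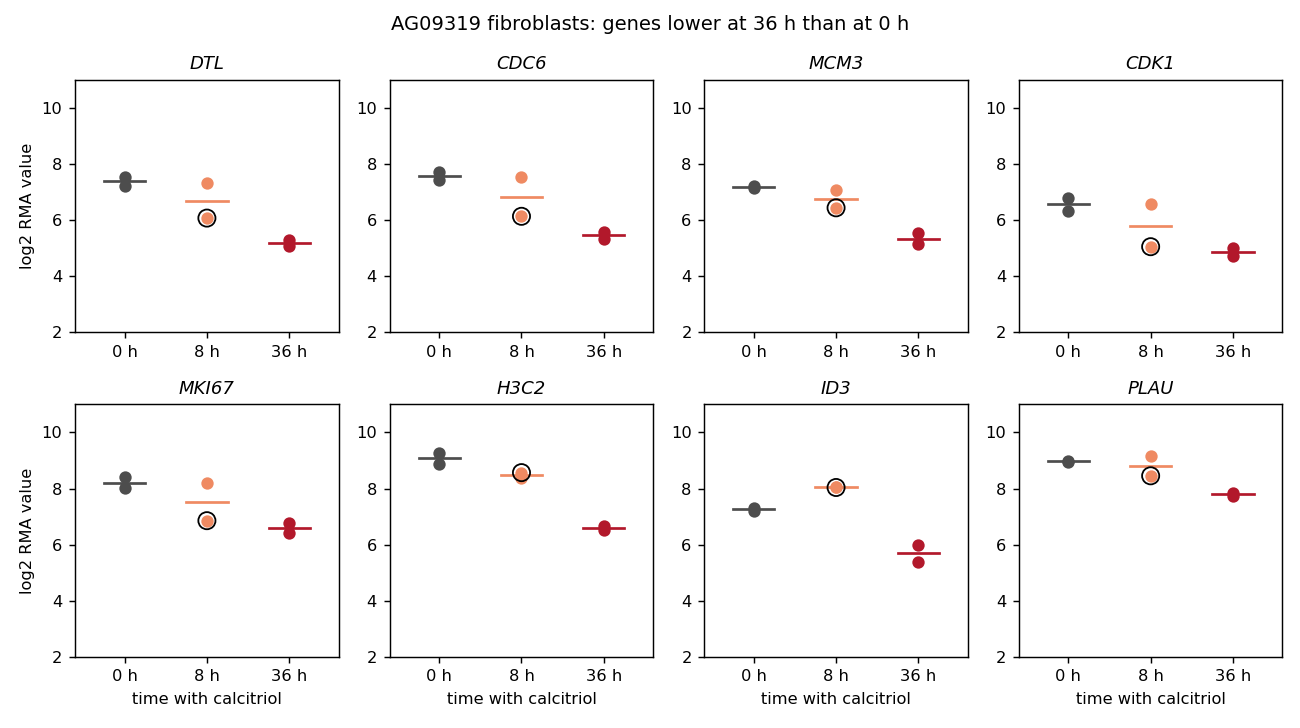
Log2 level of 8 fallen genes in each AG09319 array at 0, 8 and 36 h (points, arrays; lines, means of 2), with the 8 h array that stands apart ringed. At 8 h the array that does not stand apart lies near the 0 h level for DTL, CDC6, MCM3, CDK1 and MKI67, and for DTL both arrays at 36 h, 5.06 and 5.28, lie below it.

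Promoter sequences of the fallen cell cycle genes are shown because such genes are known to carry binding sites of E2F factors and the CHR element of cell cycle genes near their starts. The windows are the 250 bases before the RefSeq start (GRCh38.p14). For E2F the words TTTCCCGC, TTTCGCGC, TTTGCCGC and TTTGGCGC were searched, and for CHR the words TTTGAA and CTTGAA, each on both strands. A window was on hand for 14239 of the 18417 genes tested, and 4.66% of these held an E2F word. Of the 40 replication genes with a window 17, or 42.5%, held one, against 13.7% of 395 fallen genes and 3.23% of 248 risen genes. A CHR word was present in 63.9% of 36 mitosis genes, against 10% of the replication genes and 21.7% of all genes tested with a window. For fallen and risen genes the CHR shares were 32.2% and 27.8%. The word CCAAT was searched as well. It was present in 65% of the replication genes and 75% of the mitosis genes. The CCAAT shares were 61.8% of fallen, 44% of risen and 40.4% of all genes tested with a window. A match is a description of letters and not a site. Windows with a match are shown for 3 replication and 2 mitosis genes with large falls among genes that hold one, with matched words in capitals. The choice did not cover every gene of these lists, so genes not shown may combine a larger fall with a match. The E2F windows are DTL at chr1:212035498-212035747 (plus strand), MCM3 at chr6:52284743-52284992 (minus strand) and RFC3, a clamp loader subunit, at chr13:33817899-33818148 (plus strand). The CHR windows are KIF11 at chr10:92592880-92593129 and CDK1 at chr10:60778081-60778330 (both plus strand), where the CDK1 window lies before the more upstream of its 2 starts.
DTL: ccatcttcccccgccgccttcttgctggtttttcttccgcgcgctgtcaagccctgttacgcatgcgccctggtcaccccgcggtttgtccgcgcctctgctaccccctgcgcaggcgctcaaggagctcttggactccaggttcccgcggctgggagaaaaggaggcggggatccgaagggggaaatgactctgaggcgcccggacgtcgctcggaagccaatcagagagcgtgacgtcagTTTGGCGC
MCM3: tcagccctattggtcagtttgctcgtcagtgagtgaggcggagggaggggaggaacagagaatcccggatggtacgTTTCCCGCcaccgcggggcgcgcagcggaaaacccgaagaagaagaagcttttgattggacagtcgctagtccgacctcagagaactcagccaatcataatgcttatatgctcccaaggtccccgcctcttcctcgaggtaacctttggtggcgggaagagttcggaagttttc
RFC3: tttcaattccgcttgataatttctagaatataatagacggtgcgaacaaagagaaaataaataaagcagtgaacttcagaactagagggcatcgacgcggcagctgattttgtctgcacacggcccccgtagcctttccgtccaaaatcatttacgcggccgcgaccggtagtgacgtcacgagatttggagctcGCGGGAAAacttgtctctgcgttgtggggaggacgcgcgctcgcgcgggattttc
KIF11: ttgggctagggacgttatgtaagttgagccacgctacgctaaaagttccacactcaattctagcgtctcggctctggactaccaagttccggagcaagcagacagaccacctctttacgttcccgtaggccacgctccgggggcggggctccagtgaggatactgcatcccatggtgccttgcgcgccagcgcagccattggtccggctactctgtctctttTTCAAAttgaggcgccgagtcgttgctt
CDK1: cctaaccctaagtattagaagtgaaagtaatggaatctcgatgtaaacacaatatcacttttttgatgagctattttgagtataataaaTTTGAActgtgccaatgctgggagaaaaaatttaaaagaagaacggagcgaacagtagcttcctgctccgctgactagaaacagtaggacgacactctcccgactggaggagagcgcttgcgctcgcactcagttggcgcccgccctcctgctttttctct
In DTL the word begins 8 bases before the start, in MCM3 174 and in RFC3 55. In KIF11 it begins 28 bases before the start and in this CDK1 window 161. The window of the other CDK1 start, not printed here, holds 2 CHR words, which begin 13 and 69 bases before that start.

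Histone genes, chosen by symbol after their values were seen, fell with the replication genes. Replication-dependent histone genes supply the proteins that pack newly made DNA. Of 57 measured 39 fell and none rose, with a median change of -1.15. H3C2 had 6.51 and 6.67 at 36 h, against 9.28 and 8.87 at 0 h (-2.48 ± 0.22, adjusted p = 7.97e-10). H2BC14 had 7.74 and 8.37 at 36 h, against 10.60 and 10.39 at 0 h (-2.44 ± 0.23). H1-5, a linker histone, had 7.47 and 7.77 at 36 h, against 9.80 and 9.57 at 0 h (-2.06 ± 0.18). The arrays at 36 h lay below those at 0 h in all 3, as in every called fall. Many histone genes are near-identical copies, so single members are uncertain. H4C14 and H4C15 had the same value in every array, so the same measurement counts for both among the 57 and the 39. Other large falls were HELLS, a chromatin remodeller (-2.02), MYBL1, a MYB family transcription factor (-1.97), FAM111B (-1.94) and ESCO2, a cohesin acetyltransferase (-1.87), and MYBL1 lost its call without the first array at 0 h. The U5 small nuclear RNA gene RNU5D-1 had 4.40 and 5.47 at 36 h, against 8.32 and 8.21 at 0 h (-3.34 ± 0.80), and kept its call only when the second array at 36 h was left out. RNU5E-1 fell by 2.08, without its call when the first array at 36 h was left out.

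Matrix genes divided. Of 21 collagen genes none was called, with a median change of 0.00076, and COL1A1 had 11.88 and 11.45 at 36 h, against 11.65 and 11.59 at 0 h. Of 38 other matrix genes 6 rose and 2 fell (median 0.21). MFAP4, a protein of elastic microfibrils, had 7.5 and 7.73 at 36 h, against 5.81 and 6.48 at 0 h (1.47 ± 0.24). EFEMP1 rose by 1.09, the proteoglycan genes FMOD and DCN by 0.90 and 0.82, FBLN2 by 0.84 and FBN2 by 0.78. The elastin gene ELN fell by 0.84 and TNC, tenascin C, by 0.72. MFAP4, FMOD and FBLN2 kept their calls whichever array was left out. EFEMP1 and DCN lost theirs without the first array at 0 h, FBN2 whichever array was left out, ELN without either second array, and TNC in 3 of the 4 cases. PLAU, the urokinase gene, had 7.75 and 7.83 at 36 h, against 8.99 and 8.95 at 0 h (-1.18 ± 0.19, adjusted p = 3.98e-05), and with MMP16 (-1.0, lost without the first array at 36 h) was the extent of the calls among 24 matrix proteases and inhibitors.

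Genes of TGF-beta and BMP signalling moved both ways, 1 up and 3 down of 25. ID3, a BMP target that blocks basic helix-loop-helix factors, had 6.0 and 5.40 at 36 h, against 7.21 and 7.31 at 0 h (-1.56 ± 0.21, adjusted p = 2.16e-06). Its relative ID1 had 5.85 and 5.32 at 36 h, against 6.81 and 6.76 at 0 h (-1.20 ± 0.19). SMAD6, an inhibitor of BMP signalling, fell by 0.63, a call lost without the second array at 36 h or the first at 0 h. BMP4, a BMP ligand, rose by 1.22. Of 20 WNT genes only DKK1, a secreted WNT inhibitor, was called (-1.13, lost without the first array at 36 h). That is 5% of the list, against 4.51% of all genes. Of 15 contractile genes PALLD, palladin, rose by 1.08, LMOD1 by 0.73 and MYOCD fell by 0.90, of which only PALLD kept its call in every case.

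Among 27 NF-kB and inflammatory genes CXCL12, the chemokine that binds CXCR4, rose, with 10.78 and 10.78 at 36 h, against 9.43 and 9.19 at 0 h (1.47 ± 0.22, adjusted p = 1.13e-05). Both arrays at 36 h lay above both at 0 h, as in every called rise. The cytokine genes IL33 and LIF fell by 0.98 and 0.80, and each kept its call only when the first array at 36 h was left out. Of 25 interferon-stimulated genes MX2 rose by 0.59 and OAS3 fell by 0.78. Of 24 amino acid stress genes 4 rose, namely DDIT4 (0.85), PSAT1 (0.73), HERPUD1 (0.63) and ATF4 (0.62). Of 14 IGF genes IGFBP5 and PAPPA rose by 0.69 and 0.67, and of 21 immediate early genes EGR1 by 0.58. None of these 9 kept its call in all 4 cases of a left-out array. Among 23 hypoxia and glycolysis genes BNIP3L and NDRG1 rose by 0.85 and 0.59, and the glucose transporter gene SLC2A1 and ENO1, enolase, fell by 0.68 and 0.69, with ENO1 alone called in all 4 cases. Of 26 lipid synthesis genes EBP, a sterol isomerase, fell by 0.95, and none of 17 clock genes or 14 fat cell genes passed. Called shares were 3.85% for lipid synthesis, 4.76% for immediate early and 8% for interferon-stimulated genes, against 4.51% of all genes. They were 11.1% to 17.4% for the NF-kB, amino acid stress, IGF and hypoxia lists. The plot of gene lists places every member of the 23 lists.

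**Figure D4:**
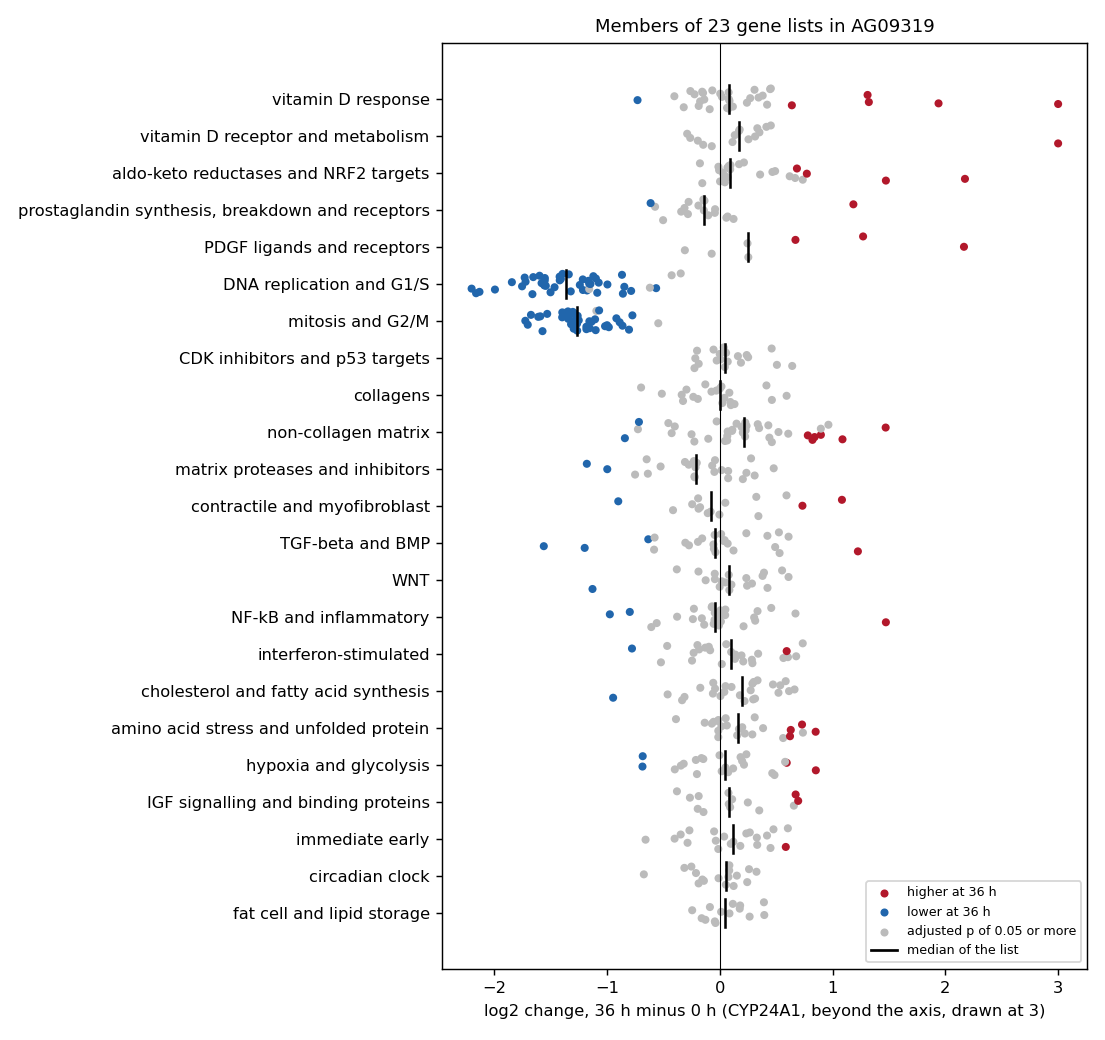
Change of each measured member of 23 gene lists in AG09319 (log2, 36 h minus 0 h), with rises in red, falls in blue, members that did not pass in grey and the median of each list as a black line. The lists of DNA replication and of mitosis, with medians of -1.37 and -1.27, lie apart from the other 21.

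Of 173 microRNA genes measured, host genes left out, 6 rose (3.47%) and none fell, against 1.84% of all genes that rose and 2.67% that fell, and these 6 were followed after their values were seen. A microRNA gene gives rise to short RNAs that pair with messages mainly through the seed, bases 2 to 8, and the probe sets read the gene's transcript and not the mature RNA. MIR21 had 6.33 and 6.07 at 36 h, against 4.83 and 4.62 at 0 h (1.47 ± 0.29, adjusted p = 0.000752). The other changes were 1.35 for MIR154, 1.09 for MIR100, 1.02 for MIR125B1, 0.88 for MIR29A and 0.78 for MIR487A. MIR21 and MIR100 alone stayed called whichever array was left out. MIR100 had 2.87 and 3.14 at 36 h, against 1.87 and 1.97 at 0 h, and MIR29A had 3.42 and 3.54 at 36 h, against 3.01 and 2.19 at 0 h. MIR125B1 and MIR487A also lay below the array medians at both times, so these 4 genes may not be above background. Mature sequences of the 6 genes (RefSeq, GRCh38.p14) are given with the seed in capitals to show which could share targets.
hsa-miR-21-5p: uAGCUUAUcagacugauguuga
hsa-miR-154-3p: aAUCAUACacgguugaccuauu
hsa-miR-487a-3p: aAUCAUACagggacauccaguu
hsa-miR-100-5p: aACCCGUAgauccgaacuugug
hsa-miR-125b-5p: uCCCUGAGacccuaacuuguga
hsa-miR-29a-3p: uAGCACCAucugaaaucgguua
The 3p RNAs of MIR154 and MIR487A, which lie near each other on chromosome 14, share the seed AUCAUAC, and no other pair of the mature RNAs of these 6 genes shares one.

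The arrays at 8 h asked which of these genes had moved early. CYP24A1 had 3.59 and 2.86 at 0 h, 5.68 and 5.11 at 8 h and 8.52 and 8.41 at 36 h, and at 8 h it was already higher than at 0 h by 2.17 ± 0.33 (adjusted p = 0.00109). Without the 8 h array that stands apart that change was 2.45 (adjusted p = 0.00582). PDGFD had 4.42 and 4.57 at 0 h, 4.61 and 4.17 at 8 h and 6.75 and 6.57 at 36 h, so that its levels at 8 h and 0 h overlapped. AKR1C3 had 5.65 and 5.55 at 0 h, 5.22 and 4.77 at 8 h and 7.67 and 7.88 at 36 h. DTL had 7.53 and 7.22 at 0 h, 7.32 and 6.07 at 8 h and 5.06 and 5.28 at 36 h, where 6.07 is the array that stands apart. At 8 h 63 probe sets differed from 0 h (0.324%), 11 up (0.0565%) and 52 down (0.267%), and without that array 5 did (0.0257%), 4 up (0.0206%) and 1 down (0.00514%). These 5 were rises of CYP24A1, PLA2G4A, the cytosolic phospholipase A2 (1.53), TM4SF1 (1.29) and ESM1 (1.29) and a fall of VAMP5 (-1.22). TM4SF1, a tetraspanin-like surface protein, and ESM1, a secreted proteoglycan, were lower at 36 h than at 0 h, with changes of -1.57 and -1.41, of which that of ESM1 lost its call without the first array at 36 h. TM4SF1 had 7.95 and 7.39 at 0 h, 8.96 and 7.34 at 8 h and 5.80 and 6.41 at 36 h, and 7.34 is again the array that stands apart. THBD had 5.89 and 6.25 at 0 h, 7.01 and 7.05 at 8 h and 6.11 and 6.18 at 36 h, and ID3 7.21 and 7.31 at 0 h, 8.04 and 8.04 at 8 h and 6.0 and 5.40 at 36 h. Between 36 h and 8 h 3506 probe sets differed (18%), or 925 (4.75%) without the array that stands apart. These comparisons share arrays with 36 h against 0 h.

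A last comparison asked whether AG09319 changed as AG09309 did. The sample titles of AG09319 carry a date and those of AG09309 do not. Line and any difference of handling therefore cannot be told apart. In AG09309 the arrays at 0 h carried genes of blood cells. LCP1, a leukocyte actin-bundling protein, had 3.93 and 3.41 at 36 h in AG09309, against 9.61 and 9.47 at 0 h, and MS4A1, the B cell antigen CD20, 3.10 and 2.85 at 36 h, against 8.15 and 8.07 at 0 h. In AG09319 LCP1 had 4.09 and 4.34 at 36 h, against 3.95 and 4.10 at 0 h. Immediate early genes also differed, with a change of 0.58 for EGR1 in AG09319 and -1.73 in AG09309. The part of these AG09309 arrays in the differences below was not tested.

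From 36 h against 0 h 955 probe sets were called in AG09309 (4.91%), 516 up (2.65%) and 439 down (2.26%). Of the AG09319 rises 74 were also rises in AG09309, or 21.3% of those in AG09319 and 14.3% of those in AG09309. Of the falls 79 were shared, or 15% and 18.0%, and 21 probe sets were called in opposite directions. The changes themselves differed between the lines for 455 probe sets (2.34%), and 183 of the 874 were among them, 64 rises and 119 falls. Without the first array of AG09319 at 0 h 247 differed, and without its first at 36 h 286. CYP24A1 changed by 5.24 in AG09319 and 6.08 in AG09309, a difference of -0.84 ± 0.47 that did not pass. PDGFD changed by 2.16 in AG09319 and 0.76 in AG09309, which differed (1.41 ± 0.26, adjusted p = 0.000714). HSD17B2 changed by 1.93 in AG09319 and -0.13 in AG09309, and CXCL12 by 1.47 and 0.04, and both differed, by 2.06 ± 0.25 (adjusted p = 4.64e-07) and 1.43 (adjusted p = 0.00419). ID3 changed by -1.56 in AG09319 and 0.75 in AG09309, a difference of -2.32 (adjusted p = 1.05e-06). For AKR1C3, with 2.17 in AG09319 and 1.18 in AG09309, the difference of 0.99 did not pass (adjusted p = 0.264).

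In both lines the medians of the cell cycle lists were below 0. The replication list had a median of -1.37 in AG09319 and -0.60 in AG09309, with 42 and 16 falls (falls were 2.24% of all genes in AG09309), and for 12 of its 46 members the lines differed (2.29% of all genes), DTL (-1.25) and MCM3 (-1.15) among them. The mitosis list had medians of -1.27 in AG09319 and -0.84 in AG09309, with 41 and 15 falls, and 1 member differed. The histone genes had medians of -1.15 in AG09319 and -0.30 in AG09309, with 39 and 7 falls. Against the mean change of the other 8 lines, 638 probe sets differed in AG09319 (3.28%), with PDGFD at 2.08, SLC40A1 at 1.92, HSD17B2 at 1.87 and H3C2 at -2.06 among them. Such a mean does not show single lines. HepG2 was itself called in the same direction for SLC40A1 (0.99), HSD17B2 (0.78) and H3C2 (-1.37), and not for PDGFD (-0.41). AG09309 was called in the same direction for PDGFD (0.76) and H3C2 (-0.78).

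**Figure D5:**
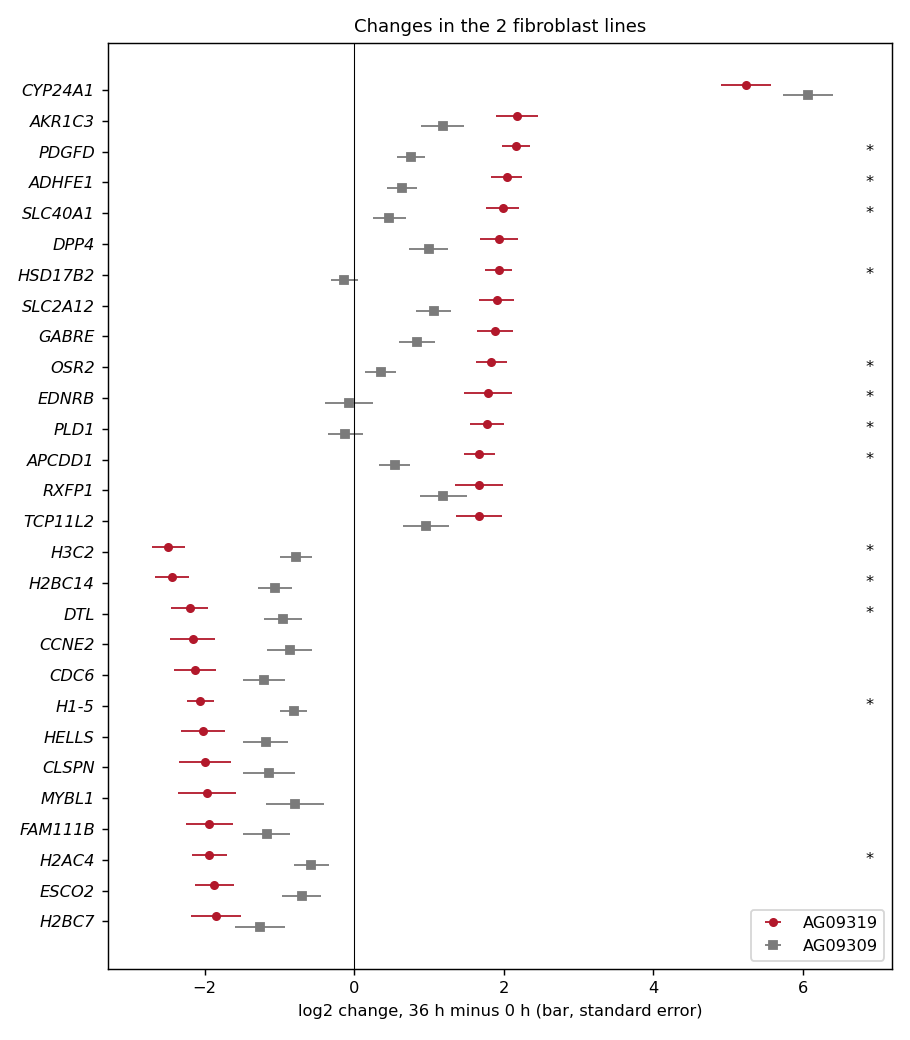
Change of 28 genes (log2, 36 h minus 0 h; bars, standard error) in AG09319 (red circles) and AG09309 (grey squares), the 15 largest rises and 15 largest falls in AG09319 without the U5 RNA genes, with an asterisk where the lines differ at an adjusted p under 0.05. HSD17B2, EDNRB and PLD1 lie at 1.78 or more in AG09319 and between -0.13 and -0.07 in AG09309.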

How the data were processed

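RNA of each sample (100 ng) was hybridised to 1 Affymetrix Gene 1.0 ST array, per the labels' protocols. The deposited log2 values come from RMA in Expression Console 1.0, per the submitters' processing notes, and the labels do not say whether all arrays were normalised together. Depth has no counterpart on arrays, and their number limits the precision.

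The labels' line and time gave the groups. Of 33297 probe sets 21214 were in the probe table used, 19460 with 1 symbol, 1754 with several and left out, and 19429 matched the reference table. No filter on low values was applied, and of several probe sets for a gene the brightest over all arrays stood for it. A fit of 27 groups to 54 arrays (limma 3.58.1, R 4.3.3, default moderation, 27 residual and 8.89 prior degrees of freedom) gave two-sided p-values, adjusted by Benjamini-Hochberg over the 19460 probe sets at 0.05. The procedure was tested on simulated data. Lines were compared by contrasts of their 36 h changes. The array numbers of the labels were not used to pair samples.

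The genes and the 23 lists (542 of 576 entries measured) were chosen with earlier results of these data known. By rule the text names 10 followed genes, the 15 largest rises and falls whose arrays do not overlap, up to 6 called members of a list in each direction, with further members where under 3 were called, and up to 5 genes in each direction of the other comparisons. Histone and microRNA genes, PCNA, RRM2, RFC3, COL1A1 and the members that did not pass in the replication list were picked after their values were seen, as were the genes called at 8 h without 1 array. Promoters and mature microRNAs are RefSeq's (GRCh38.p14). Alternatives covered the arrays that share the spread, moderation, a replicate block, normalisation, filters and left-out arrays. Tables and plots used Python 3.11.15, numpy 2.4.6, pandas 2.3.3 and matplotlib 3.10.9.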

Additional observations from a re-analysis of the deposited data

Results flagged for a closer look

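Of the 36 genes followed or among the largest changes, 13 changed by different amounts in the 2 fibroblast lines, by the test of the difference of the 36 h change (AG09319 minus AG09309, log2, limma, adjusted over all probe sets tested). For 8 rises the change was larger in AG09319, by 1.41 for PDGFD, 1.4 for ADHFE1, 1.52 for SLC40A1, 2.06 for HSD17B2, 1.48 for OSR2, 1.86 for EDNRB, 1.90 for PLD1 and 1.13 for APCDD1. For 5 falls the difference was -1.70 for H3C2, -1.38 for H2BC14, -1.25 for DTL, -1.25 for H1-5 and -1.37 for H2AC4. HSD17B2 had the smallest adjusted p of these (4.64e-07) and DTL the largest (0.0495). The AG09309 arrays at 0 h carry blood cell and immediate early transcripts, and their part in these differences was not tested.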

How the results depend on the processing

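The count of 874 changed probe sets at 36 h rests on the arrays that lend their spread. It was 1 with only AG09319 arrays, 231 with only the arrays of both fibroblast lines, 1448 without the 3 groups whose arrays agree least (those of K562 at 36 h, AG09319 at 8 h and HepG2 at 0 h), and 476 to 577 without 1 of the 4 arrays. It lay between 833 and 972 with quantile normalisation, centred arrays, trended and robust moderation, a mean of at least 5, 1 probe set per gene, all probe sets, the 4 arrays alone, or the AG09319 arrays without the second at 8 h, the last chosen after seeing the data. The 63 at 8 h became 201 without the 3 groups that agree least outside that comparison (HepG2 at 0 h and K562 at 0 and 36 h), and 5 to 10322 without 1 of the 8 h arrays, which left 925 to 10772 for 36 h against 8 h. The 455 differences between the lines became 879 without the 3 groups named first and 247 to 394 without 1 AG09319 array. The labels do not say that their numbers pair arrays, and the deviations of same-numbered arrays correlated at -0.303 between 36 h and 0 h, 0.573 between 8 h and 0 h and -0.347 between 36 h and 8 h. With the numbers as a replicate block 917 were called at 36 h, 115 at 8 h and 445 between the lines.

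Of the 36 genes followed or among the largest changes, 29 lost their call with only AG09319 arrays, and CYP24A1 alone kept its call. VDR, CDKN1A, THBD, CD14, CAMP and IGFBP3 had no call to lose. EDNRB, RXFP1, CLSPN and MYBL1 lost their calls with the fibroblast lines only, and RNU5D-1, RNU5E-1 and MYBL1 without 1 array. Those that turned sign had not been called, and without 1 array ranged from -0.105 to 0.261 for THBD, -0.0815 to 0.312 for CD14, -0.689 to 0.0482 for CAMP and -0.141 to 0.298 for IGFBP3 (also -0.0732 for CD14 and -0.112 for IGFBP3). The cause of these shifts was not tested.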

Other observations

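All genes in this part were picked after their values were seen. Of all genes 1.84% rose and 2.67% fell. Metallothionein genes, whose small proteins bind zinc and copper, were lower in AG09319 at 36 h, with 4 of 8 measured called and a median change of -0.91. MT2A had 10.71 and 10.51 at 36 h, against 11.88 and 11.87 at 0 h (-1.27 ± 0.18), MT1M changed by -1.14, MT1F by -1.15 and MT1G by -1.08, and MT1F lost its call without the second array at 36 h. These genes are near-identical in sequence, so single members are uncertain. In AG09309 the median of the 8 was 0.15. The isocitrate dehydrogenase genes IDH2 and IDH1, which make NADPH, rose by 1.4 and 1.20, and the other 3 measured of the family did not pass. The median of the family was -0.094. In AG09309 IDH2 also rose, by 0.67, and IDH1, with 0.24, did not pass. Of 4 measured subunit genes of guanylate cyclase 1, the nitric oxide receptor, GUCY1B1 rose by 1.39 and GUCY1A1 by 0.72 (median of the 4, 0.39). GUCY1A1 lost its call without the second array at 36 h or either at 0 h. With 3.87 and 4.20 at 36 h, against 3.28 and 3.34 at 0 h, GUCY1A1 may not be above background. Of 7 class 3 semaphorin genes, which encode secreted guidance proteins, SEMA3D rose by 1.47, SEMA3E by 1.26 and SEMA3B by 1.05 (median of the 7, 0.29). With 1 array left out, SEMA3B was called only when that was the second at 0 h. In AG09309 SEMA3D also rose, by 1.77, and SEMA3E and SEMA3B, with 0.22 and 0.19, did not pass. Of 16 integrin alpha genes ITGA6 (-1.37), ITGA2 (-1.27) and ITGA3 (-0.81) fell, while the median of the 16 was -0.059. ITGA3 lost its call without the first array at 0 h and the other two also without either array at 36 h.

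Between DLK1 and DIO3 on chromosome 14, an imprinted region with many small RNAs, 5 of 27 measured genes rose and none fell, with a median change of 0.21 (0.095 in AG09309). They were MIR154 (1.35), SNORD114-2 (1.25), SNORD113-4 (1.19), the long noncoding RNA MEG3 (0.99) and MIR487A (0.78). SNORD114-2, with 3.95 and 4.27 at 36 h, against 2.61 and 3.11 at 0 h, and MIR487A may not be above background. MEG3 had 7.2 and 7.5 at 36 h, against 6.13 and 6.59 at 0 h, and each of the 5 lost its call in at least 2 of the 4 cases of a left-out array. Among further rises that kept their calls whichever array was left out were APOD, apolipoprotein D (1.65), LBH, a transcription cofactor (1.63), RGCC, a regulator of the cell cycle (1.58), OMD, osteomodulin (1.41), RECK, a membrane inhibitor of metalloproteinases (1.18), and SGK1, a kinase induced by steroid hormones and serum (1.08). OMD, with 4.57 and 4.59 at 36 h, against 3.25 and 3.10 at 0 h, lay below the array medians and may not be above background. SGK1 changed by -1.22 in AG09309. BDKRB1, a bradykinin receptor, had 6.44 and 6.62 at 36 h, against 8.27 and 8.01 at 0 h (-1.61 ± 0.23), and changed by -0.08 in AG09309.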
